A study of Mus musculus with 5 samples.

Results

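The genes described here are 37 autophagy genes, chosen by symbol from the 54532 gene IDs of the count table: the core machinery, the cargo receptors and 3 regulators. All 37 had a row and passed the filter on low counts. Foxo3 and Wdfy3 had been singled out from the same comparison of DMXAA with vehicle, and the whole set was proposed with results of that comparison known. The differences below are therefore given as a description and support nothing beyond themselves. RNA was sequenced from kidneys of male wild-type C57BL/6J mice aged 8 weeks. The 3 vehicle libraries came from mice injected intraperitoneally with vehicle each day for 3 days, and the 2 DMXAA libraries from mice given DMXAA at 10 mg/kg by the same route and schedule. Kidneys were taken on day 3. DMXAA, a xanthenone drug, switches on mouse STING, the adaptor that relays the sensing of DNA in the cytosol. The labels number the samples as replicates and do not say that each is a separate mouse, so the errors measure the spread between these samples.

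Autophagy encloses cytoplasm in a double membrane, the autophagosome, and delivers it to lysosomes for breakdown. The ULK kinase complex starts the process, the Beclin 1 lipid kinase complex marks the membrane, ATG9 vesicles and ATG2 supply lipid, and conjugation enzymes attach the small ATG8 proteins (LC3 and GABARAP) to it, to which cargo receptors such as p62 bind. STING is known to trigger the attachment of LC3 to membranes, and kidney tubule cells depend on autophagy for their upkeep; FOXO3 and TFEB are transcription factors known to act on autophagy genes.

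Library totals were 17667490 to 20264228 counts, of which the 37 genes took 0.410 to 0.428%, with 134 to 15124 counts for a member in a library. No gene was called by edgeR's quasi-likelihood test over the 16226 genes tested (percent called 0; adjusted p below 0.05). At an unadjusted p below 0.05, 6.55% of all genes were counted. DESeq2 called 54 of the 18246 genes it adjusted, which is 0.296%. Libraries were kept as 5 samples, as the labels number them. The most alike pair, the 2 DMXAA libraries, differed beyond sampling noise (7.94 in chi-square per degree of freedom). All other pairs lay farther apart, at 17.6 to 42.4. The value for the DMXAA pair does not show whether these 2 libraries came from separate mice. Vehicle library 1 stood apart by its fat and urothelial transcripts: 7 adipocyte markers summed to 674.5 CPM there and to 27.7 to 55.5 CPM in the other 4 libraries. CPM is the read count scaled to library size with TMM factors, and values are mean ± SD over 3 vehicle and 2 DMXAA libraries.

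Of the 37 genes, 3 stood highest over vehicle: Foxo3, a forkhead transcription factor, Wdfy3, a large scaffold protein also called ALFY that brings protein aggregates to the autophagy machinery, and Lrrk2, a large kinase linked to Parkinson disease and lysosome stress. Their levels were 44.9%, 44.5% and 36.2% above vehicle. All 5 ATG8 genes had lower estimates, by 5.73 to 19.96%. The other genes of the machinery lay mostly between these, and the median log2 fold change over the 37 was 0.01, against -0.01 over all genes tested; 19 of 37 estimates were above 0, beside 46.9% of all genes.

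No member was called by edgeR (0 of 37, beside 0% of all genes). The smallest adjusted p of a member was that of Foxo3, 0.535. At an unadjusted p below 0.05 there were 7 members, 6 higher and 1 lower, beside 3.89% of all genes higher and 2.65% lower. In 14 members the 2 groups did not overlap in CPM, 8 of them higher and 6 lower, which is 21.6% and 16.2% of the members, beside 13.7% and 12.3% of all genes. DESeq2 called 3 members, all higher (beside 0.252% of all genes called higher): Foxo3 (adjusted p = 0.000403), Wdfy3 (adjusted p = 0.00156) and Lrrk2 (adjusted p = 0.00369). Of these DESeq2 calls, that of Lrrk2 was lost when a single vehicle library was left out. Without vehicle library 3 DESeq2 called Foxo3 and Wdfy3, and without vehicle library 1 it called all 3 and Gabarapl1 as well. Leaving out a DMXAA library leaves 1 sample in that group, so whether the calls rest on either DMXAA library cannot be told. The edgeR log2 fold changes without DMXAA library 1 and without DMXAA library 2 were 0.52 and 0.55 for Foxo3. They were 0.60 and 0.47 for Wdfy3, and 0.49 and 0.41 for Lrrk2.

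**Figure D1:**
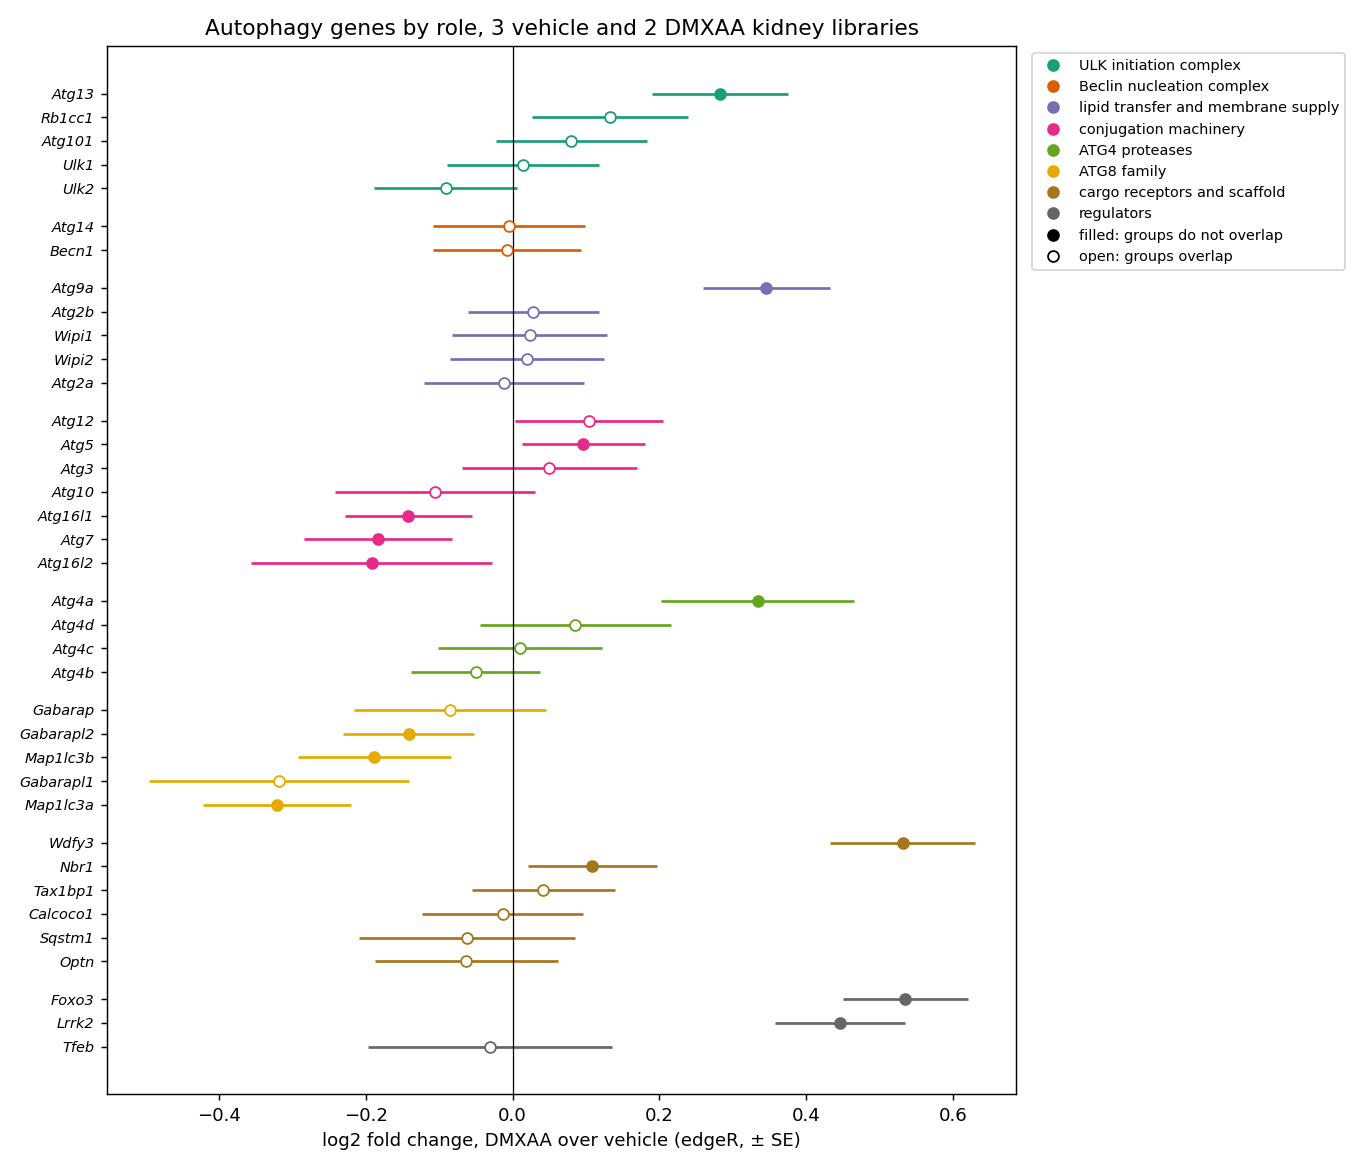
Log2 fold change of each autophagy gene, DMXAA over vehicle, with its standard error (x axis), grouped and coloured by role (y axis); filled points mark genes whose 3 vehicle and 2 DMXAA libraries did not overlap in CPM. Foxo3, Wdfy3 and Lrrk2 lie at 0.45 to 0.54, and the 5 ATG8 genes lie between -0.32 and -0.09.

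Promoter sequences are shown for Foxo3 and Lrrk2, which had the highest estimates among members with a RefSeq promoter entry, and for Atg3, the only 1 of 31 members whose promoter held the 8-base CLEAR motif of TFEB. RefSeq entries on GRCm38.p6 were found for 31 of the 37 genes. Each sequence runs 5′ to 3′ on the gene's strand and ends just before the gene as GENCODE M21 annotates it. Capitals mark a motif; the Foxo3 and Lrrk2 stretches held none of those searched. Foxo3 is chr10:42276756-42276945 on the minus strand, Lrrk2 chr15:91672974-91673174 on the plus strand and Atg3 chr16:45158579-45158784 on the plus strand.
Foxo3: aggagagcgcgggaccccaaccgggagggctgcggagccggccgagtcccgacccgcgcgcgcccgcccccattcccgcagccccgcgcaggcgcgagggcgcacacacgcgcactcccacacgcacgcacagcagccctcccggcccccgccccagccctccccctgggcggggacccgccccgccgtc
Lrrk2: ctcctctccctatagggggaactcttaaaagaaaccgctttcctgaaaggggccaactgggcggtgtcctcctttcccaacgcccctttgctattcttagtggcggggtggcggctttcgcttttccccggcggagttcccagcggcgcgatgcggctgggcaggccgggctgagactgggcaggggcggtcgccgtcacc
Atg3: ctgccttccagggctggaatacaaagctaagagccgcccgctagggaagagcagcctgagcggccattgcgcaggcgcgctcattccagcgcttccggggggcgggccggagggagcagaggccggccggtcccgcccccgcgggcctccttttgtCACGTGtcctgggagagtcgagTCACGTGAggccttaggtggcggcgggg
The stretches were rich in G and C, with 81.6% in Foxo3, 64.2% in Lrrk2 and 69.9% in Atg3.

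4 motifs were searched on both strands over 250 bases before to 50 after each start. The FOXO motif TGTTTAC was in 0 of 31 member promoters and in 4.05% of the 27025 genes with an entry. The E-box CACGTG was in 4 members (12.9%), Atg3, Atg5, Atg7 and Atg14, and in 8.09% of all genes. The CLEAR motif TCACGTGA, which contains the E-box, was in 1 member (3.23%) and in 1.12% of all genes; in Atg3 it began 72 bases before the RefSeq start, which lies inside the gene as GENCODE annotates it and so beyond the end of the printed stretch, and a separate E-box began 94 bases before that start. The core of the interferon-stimulated response element, 2 GAAA runs with 2 bases between them, was in Nbr1 alone among members (3.23%), as GAAAGGGAAA across the start site, and in 3.99% of all genes. Atg3, with the CLEAR motif, was at 50.8, 63.2 and 57.0 CPM with vehicle against 55.6 and 62.4 CPM with DMXAA, so its groups overlapped.

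Among the regulators, Foxo3 (ENSMUSG00000048756, chromosome 10 from 42181841 to 42276755 on mm10) was at 103, 101 and 110 CPM with vehicle against 153 and 150 CPM with DMXAA. Both DMXAA libraries lay well above all vehicle libraries, and the values within each group were close. The means were 104.5 ± 4.42 and 151 ± 2.63 CPM, with a log2 difference of 0.54 (SE 0.09). Leaving out any 1 library kept the log2 fold change between 0.52 and 0.57. Lrrk2 (chromosome 15 from 91673175 to 91816120) was at 177, 167 and 168 CPM with vehicle against 227 and 238 CPM with DMXAA. Its groups were as clearly separate, with a log2 fold change of 0.45 (SE 0.09). Tfeb, the regulator of lysosomal genes, showed no such separation, at 21.8, 29.1 and 30.8 CPM with vehicle against 24.7 and 28.6 CPM with DMXAA.

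The other FOXO genes give a comparison of levels within the family, taken per exon length as TPM, which has the same sum in every library. Foxo3 stood at 36.4 ± 3.33 TPM in vehicle and 54.2 ± 0.28 TPM in DMXAA. Foxo1 stood at 15.6 ± 1.1 and 17.98 ± 1.28 TPM, and Foxo4 at 36.6 ± 4.26 and 33.7 ± 5.48 TPM. In CPM Foxo1 did not overlap between the groups, at 49.6, 50.9 and 53.0 against 60.9 and 54.1 CPM, while Foxo4 was at 49.1, 45.3 and 50.2 against 48.7 and 38.0 CPM. The edgeR log2 fold changes were 0.17 (SE 0.09) for Foxo1 and -0.15 (SE 0.13) for Foxo4, and whether they differ from that of Foxo3 was not tested.

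Among the cargo receptors and scaffolds, Wdfy3 (ENSMUSG00000043940, chromosome 5 from 101832956 to 102069921) was at 199, 187 and 207 CPM with vehicle against 273 and 298 CPM with DMXAA. All vehicle libraries were below both DMXAA libraries, and the log2 fold change was 0.53 (SE 0.10), 0.47 to 0.60 when any 1 library was left out. The gene contains 3 annotated overlapping genes, 2 of them antisense, and its counts could include their reads. Nbr1, a receptor for ubiquitin-tagged cargo, was at 228, 232 and 226 CPM with vehicle against 251 and 242 CPM with DMXAA. Its groups were separate by a small margin, 7.82% on average.

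Sqstm1, which encodes the receptor p62, varied more among vehicle libraries than between groups, at 538, 713 and 603 CPM with vehicle against 614 and 570 CPM with DMXAA. Both DMXAA values lay inside the vehicle range. Tax1bp1, Optn and Calcoco1, receptors or adaptors for ubiquitin-tagged cargo or the endoplasmic reticulum, had log2 fold changes of 0.04, -0.06 and -0.01 with overlapping groups. The sign of all 4 estimates changed under at least 1 of the 13 alternative settings.

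**Figure D2:**
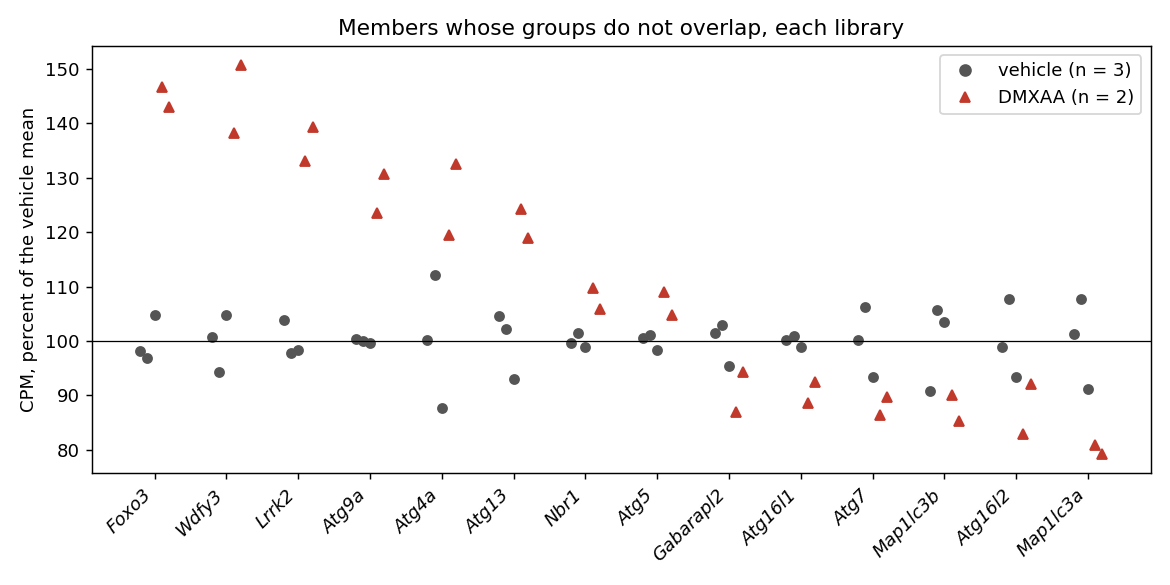
CPM of the 14 autophagy genes whose groups did not overlap, as percent of the vehicle mean (y axis), for each vehicle library (grey circles) and each DMXAA library (red triangles), in order of log2 fold change. Foxo3, Wdfy3 and Lrrk2 lie farthest above 100%, and Map1lc3a lies farthest below it.

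In the ULK complex, Atg13, the subunit that links the kinase to its scaffold, was at 57.3, 55.9 and 50.9 CPM with vehicle against 68.0 and 65.1 CPM with DMXAA. Both DMXAA libraries were above the vehicle range, with a log2 fold change of 0.28 (SE 0.09). The scaffold Rb1cc1, also called FIP200, stood at 74.3, 61.6 and 64.5 CPM with vehicle against 74.4 and 72.0 CPM with DMXAA. Vehicle library 1 reached the DMXAA level of Rb1cc1, so the groups overlapped. The kinases Ulk1 and Ulk2 and the subunit Atg101 had log2 fold changes of 0.01, -0.09 and 0.08, all with overlapping groups.

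The Beclin complex members Becn1 and Atg14, which direct the lipid kinase to the forming membrane, were nearest to vehicle. Becn1 was at 84.9, 82.2 and 80.3 CPM with vehicle against 75.2 and 88.8 CPM with DMXAA. The 2 DMXAA libraries lay on either side of the vehicle range. Atg14 had a log2 fold change of -0.01.

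Among the genes that supply membrane, Atg9a, the membrane protein of the vesicles that seed autophagosomes, was at 29.6, 29.5 and 29.4 CPM with vehicle against 36.4 and 38.5 CPM with DMXAA. The vehicle libraries were almost equal, with a coefficient of variation of 0.309%, and both DMXAA libraries were higher. The log2 fold change was 0.35 (SE 0.09), and 2 annotated genes overlap Atg9a, Ankzf1 on the other strand and Gm29253 on the same strand. The lipid-transfer genes Atg2a and Atg2b and the phosphoinositide-binding genes Wipi1 and Wipi2 lay between -0.01 and 0.03 with overlapping groups.

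The conjugation genes lay in both directions, with 3 of 7 estimates above 0. Atg7, the E1-like enzyme that activates ATG8 and ATG12, was at 29.1, 30.9 and 27.1 CPM with vehicle against 25.1 and 26.0 CPM with DMXAA. Atg16l1, which places the conjugation complex on membranes, was at 35.3, 35.5 and 34.8 CPM with vehicle against 31.2 and 32.6 CPM with DMXAA. Its paralog Atg16l2 had 8.87, 9.66 and 8.37 CPM with vehicle against 7.44 and 8.26 CPM with DMXAA. These 3 genes were lower in both DMXAA libraries than in any vehicle library, by 9.38 to 12.5% on average.

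Atg5, whose product is joined to ATG12, lay in the other direction, at 41.8, 42.1 and 40.9 CPM with vehicle against 45.3 and 43.6 CPM with DMXAA. The E2-like genes Atg3 and Atg10 and the ubiquitin-like gene Atg12 had log2 fold changes of 0.05, -0.11 and 0.10, and their groups overlapped. Among the ATG4 proteases, which trim ATG8 proteins and free them from membranes, Atg4a was at 22.8, 25.5 and 19.97 CPM with vehicle against 27.2 and 30.2 CPM with DMXAA. Its log2 fold change was 0.33 (SE 0.13), and the other 3 proteases, Atg4b, Atg4c and Atg4d, lay between -0.05 and 0.09 with overlapping groups.

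The ATG8 genes had the highest levels per exon length of the machinery, receptors aside, and all 5 had lower estimates in DMXAA. Short genes in general more often had lower estimates, as described below for exon length. Map1lc3a, one of the LC3 genes, was at 79.8, 84.9 and 71.8 CPM with vehicle against 63.7 and 62.5 CPM with DMXAA. All vehicle libraries were above both DMXAA libraries, with a log2 fold change of -0.32 (SE 0.10). With each library corrected for total exon length and GC content the estimate was -0.20. Map1lc3b was at 173, 201 and 197 CPM with vehicle against 171 and 162 CPM with DMXAA. Vehicle library 1 was within 2 CPM of the higher DMXAA library, so that separation was narrow. Gabarapl2 was at 81.5, 82.7 and 76.7 CPM with vehicle against 69.9 and 75.7 CPM with DMXAA, also separate by a small margin. Other annotated genes overlap Map1lc3b and Gabarapl1, on both strands, and how their reads were divided was not stated.

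Gabarapl1, the GABARAP-family gene with the highest counts, was at 610, 860 and 800 CPM with vehicle against 656 and 557 CPM with DMXAA. Vehicle library 1 lay between the DMXAA libraries, and the log2 fold change of -0.32 (SE 0.18) was -0.46 without vehicle library 1 and -0.20 without DMXAA library 2. Gabarap was at 280, 363 and 313 CPM with vehicle against 297 and 304 CPM with DMXAA, inside the vehicle range, and its log2 fold change of -0.09 was 0.02 without vehicle library 2. In vehicle library 1 Gabarapl1, Gabarap, Map1lc3b and Sqstm1 were each at their lowest vehicle value, and in vehicle library 2 each was at its highest.

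**Figure D3:**
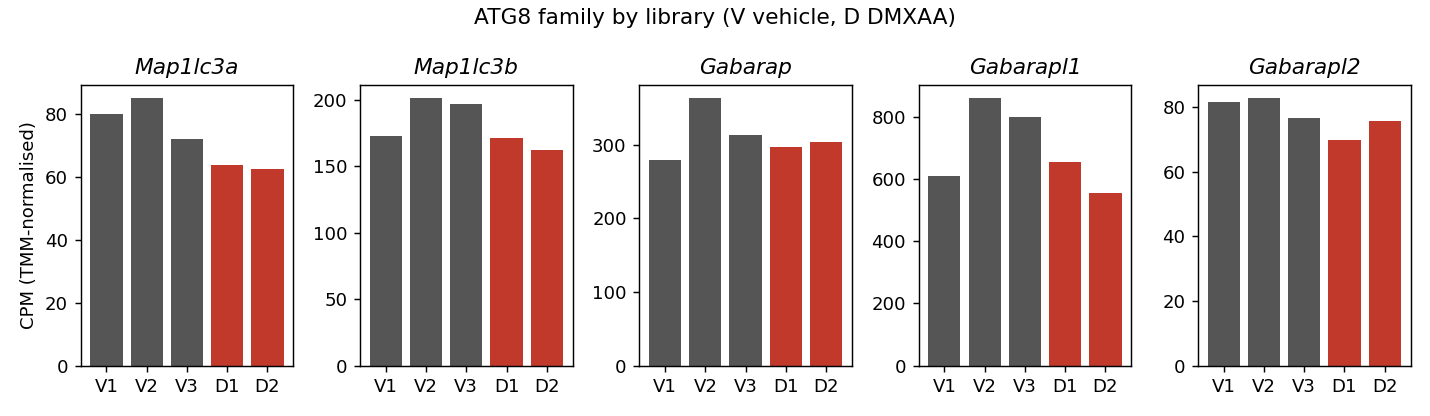
CPM (y axis, from 0) of the 5 ATG8 family genes in vehicle libraries 1 to 3 (grey bars V1 to V3) and DMXAA libraries 1 and 2 (red bars D1 and D2), 1 panel per gene with its own scale. Map1lc3a is lower in both DMXAA libraries than in any vehicle library, while Gabarap in DMXAA lies inside the vehicle range.

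Per exon length the order of levels was led by Gabarapl1 at 985 ± 121 TPM in vehicle, followed by Sqstm1 at 483 ± 35.0 and Gabarap at 453 ± 28.4 TPM. The vehicle ranges of Sqstm1 and Gabarap overlapped, but Sqstm1 was the higher of the pair within each library. Map1lc3a followed at 176 ± 12.8 TPM, with no overlap with its neighbours in the order. Gabarapl2 and Nbr1, at 91.1 ± 6.01 and 87.7 ± 5.10 TPM, overlapped in range. Gabarapl2 was the higher within each vehicle library and Nbr1 within each DMXAA library. The lowest were Atg2b at 8.71 ± 0.549 and Atg16l2 at 2.79 ± 0.135 TPM, and the median member stood at 30.8 TPM. The 5 ATG8 genes together held 57.2% of the members' summed TPM in vehicle and 52.2% in DMXAA, with sums of 1620, 1849 and 1844 TPM in vehicle and 1596 and 1500 TPM in DMXAA. Within the ATG8 family Gabarapl1 made up 52.2, 56.3 and 57.8% of that sum in vehicle and 54.9 and 50.4% in DMXAA, so its share overlapped between the groups.

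**Figure D4:**
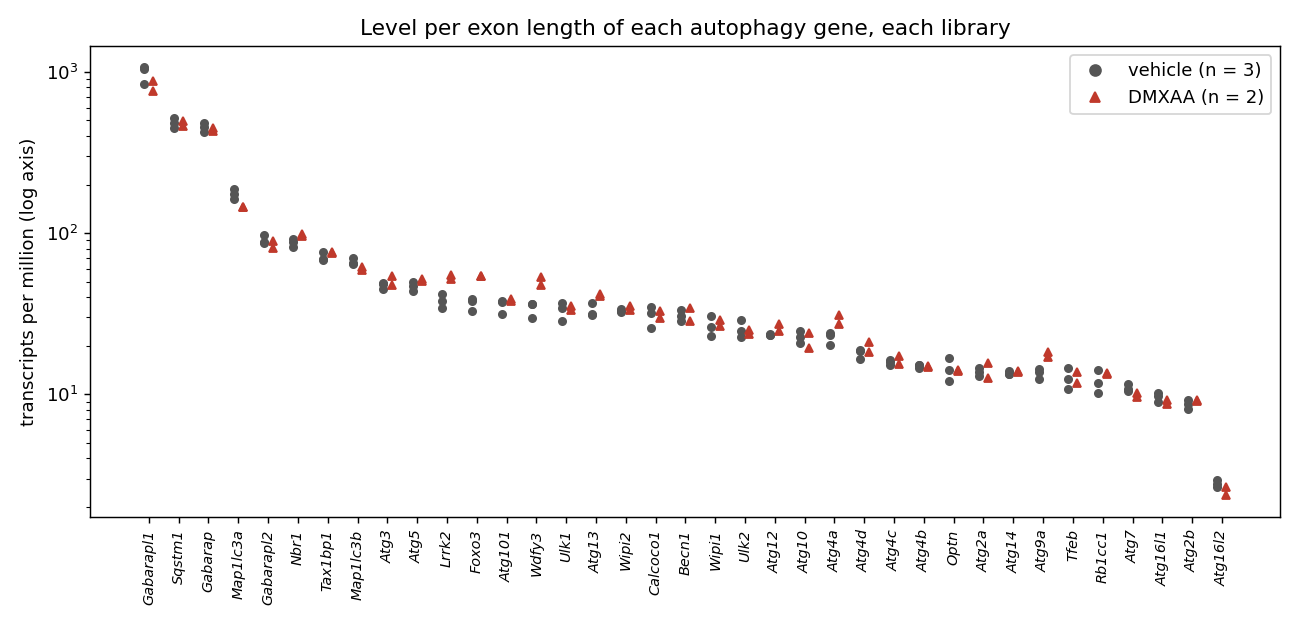
Level per exon length of each of the 37 autophagy genes in TPM (y axis, log scale), for each vehicle library (grey circles) and each DMXAA library (red triangles), ordered by the vehicle mean (x axis). Gabarapl1, Sqstm1 and Gabarap are the 3 highest, and Atg16l2 stands lowest.

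Levels of some paralogs differed by more than their spread. Atg4b, at 15.01 ± 0.464 TPM, was below Atg4c, at 15.8 ± 0.605 TPM, within each library, though their vehicle ranges overlapped. These levels were taken per total exon length, which is 8278 and 3351 bases. With the mean isoform length in its place, Atg4b stood at position 14 and Atg4c at position 36 of the 37. Atg16l1 was at 9.65 ± 0.622 and Atg16l2 at 2.79 ± 0.135 TPM in vehicle, and Atg2a was at 13.8 ± 0.814 and Atg2b at 8.71 ± 0.549 TPM. Map1lc3a was at 176 ± 12.8 and Map1lc3b at 66.6 ± 3.24 TPM. Map1lc3b has a total exon length of 7517 bases and Map1lc3a of 1181 bases, and with the mean isoform length in place of the total the order of this pair turned, with Map1lc3b at position 6 and Map1lc3a at position 7 of the 37. Among the vehicle libraries the members had a median coefficient of variation of 6.45%, against 13.2% over all genes tested. The 2 values were not matched for level, so they do not show that low variation is particular to the members. The average level of the members ranged from percentile 36.9 to percentile 99.3 of the genes tested.

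Fold changes varied with exon length. Among the 10429 genes whose average log2 CPM exceeded 3, the Spearman correlation of the log2 fold change with total exon length was 0.25, and over the 37 members it was 0.30. These are descriptions across genes of the same 5 libraries, and genes are not independent replicates. Of all such genes up to 2000 bases 29.4% had an estimate above 0, and of those above 8000 bases 66.0% did. Wdfy3 has 15346, Lrrk2 11834 and Foxo3 7571 bases of exon. With each library corrected for length and GC content the log2 fold changes were 0.48 for Wdfy3, 0.36 for Lrrk2 and 0.55 for Foxo3. Of the ATG8 genes, Map1lc3a has 1181, Gabarap 1844, Gabarapl1 2013, Gabarapl2 2325 and Map1lc3b 7517 bases of exon. Their corrected log2 fold changes were, in that order, -0.196, -0.06, -0.276, -0.136 and -0.215. The part of length in the lower ATG8 estimates was not tested. Of the 9 members above 8000 bases 6 had estimates above 0, with a median of 0.03, against 0.07 over all such genes of that length.

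**Figure D5:**
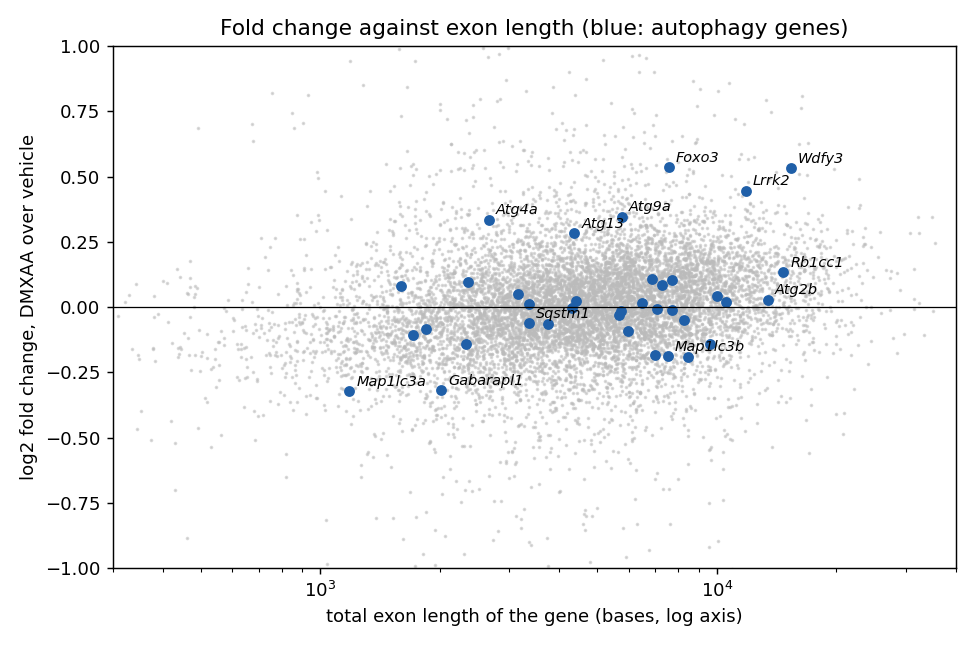
Log2 fold change, DMXAA over vehicle (y axis), against total exon length in bases (x axis, log scale) for the 37 autophagy genes (blue) and 10392 other genes whose average log2 CPM exceeded 3 (grey; 84 of them lie outside the plotted range). Foxo3, Wdfy3 and Lrrk2 lie near the upper edge of the cloud at their lengths.

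Of 12 lists of cell type markers, the summed levels of proximal tubule and red blood cell markers did not overlap between the groups. Every listed marker of proximal tubule, podocyte, loop and distal tubule, collecting duct and endothelium had counts in all 5 kidney libraries. The collecting duct marker Avpr2 had only traces, at 0.054, 0.057 and 0.111 CPM with vehicle against 0.499 and 0.149 CPM with DMXAA. In bulk tissue fewer cells of a type and less RNA per cell cannot be told apart. Of 11 proximal tubule markers 9 had estimates above 0, and their sum was 11850 to 15080 CPM in vehicle and 15750 to 16480 CPM in DMXAA, with no marker at 0. Red blood cell markers, 5 of 5 with lower estimates, summed to 73.3 to 280.5 CPM in vehicle and 29.9 to 52.3 CPM in DMXAA. The part of these shifts in the differences of Foxo3, Wdfy3, Lrrk2 and the ATG8 genes was not tested. Without vehicle library 1, the library with adipocyte and urothelial transcripts, the log2 fold changes were 0.52 for Foxo3, 0.53 for Wdfy3, 0.47 for Lrrk2 and -0.32 for Map1lc3a.

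Around the machinery, 7 lists with 130 further genes of the pathway were examined, of which 127 were tested. edgeR called 0 of the 127, and 7 (5.51%) had an unadjusted p below 0.05, beside 6.55% of all genes; DESeq2 also called 0. The median log2 fold change over the 127 was 0.0039.

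In a list of further genes of the forming membrane and its nucleation, which also held Epg5, 6 of 13 had estimates above 0 (median -0.01). Epg5, a tether for autophagosomes at lysosomes, was at 37.4, 34.0 and 36.5 CPM with vehicle against 43.2 and 43.5 CPM with DMXAA. Wdr45, a phosphoinositide-binding relative of the WIPI genes, was at 21.3 ± 1.68 and 18.1 ± 2.17 CPM. Of 14 genes of fusion with the lysosome, 8 had estimates above 0 (median 0.03), 0 had an unadjusted p below 0.05, and 5 (35.7%, beside 13.7% of all genes) lay above all vehicle libraries, among them the tethering subunit Vps33a (63.8 ± 2.76 and 72.9 ± 1.47 CPM) and the adaptor Plekhm1 (47.8 ± 1.30 and 53.2 ± 0.938 CPM).

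Lysosomal genes of the CLEAR network, the set bound by TFEB, had a median log2 fold change of 0.02 over 30 genes, 18 above 0 and 0 at an unadjusted p below 0.05. Gaa, a lysosomal enzyme that breaks down glycogen, was at 118 ± 15.02 CPM with vehicle and 100.2 ± 1.06 CPM with DMXAA. In the nutrient-sensing list, 16 of 31 genes had estimates above 0 (median 0.01). Mtor, the kinase that restrains ULK1 and TFEB, was at 209, 213 and 194 CPM with vehicle against 255 and 254 CPM with DMXAA, a log2 fold change of 0.31 (SE 0.09; edgeR adjusted p = 0.724). The groups of Mtor did not overlap. Rragd, a Rag GTPase of the same pathway, was at 104 ± 20.6 and 82.0 ± 4.25 CPM.

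The FOXO and MiT/TFE factors other than Foxo3 and Tfeb had a median log2 fold change of -0.03, and 2 of 6 lay above 0. Tfec was at 19.9 ± 4.93 and 24.3 ± 1.58 CPM. Genes known as FOXO targets lay in both directions: 9 of 20 had estimates above 0, with a median of -0.09. Trim63, a muscle ubiquitin ligase, was at 14.1, 14.3 and 12.5 CPM with vehicle against 16.9 and 20.2 CPM with DMXAA, and Cited2, a transcriptional co-regulator, at 66.5, 62.6 and 78.9 CPM with vehicle against 55.1 and 53.3 CPM with DMXAA. The groups of both genes were separate. In all, 2 of the 20 lay above and 4 below all vehicle libraries (10% and 20%, beside 13.7% and 12.3% of all genes). At an unadjusted edgeR p below 0.05 there were 1 higher and 3 lower genes of the 20, beside 3.89% and 2.65% of all genes. The other two lower ones were Irs2, an adaptor of insulin signalling, at a log2 fold change of -0.38 (SE 0.13), and Igfbp1, a binding protein of insulin-like growth factors, at -0.81 (SE 0.31), with an adjusted p of 0.741 for each by edgeR. Mitophagy and other selective receptors had a median of -0.02, with 8 of 17 above 0. Ncoa4, the receptor for ferritin, was at 97.7 ± 11.8 and 125 ± 13.3 CPM, and Pink1, the kinase that marks damaged mitochondria, at 377 ± 46.6 and 305 ± 30.5 CPM.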

How the data were processed

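The values deposited by the authors are unnormalised read counts for Ensembl genes, 1 column for each library. The submitters' processing notes name the build mm10 and the tools featureCounts, HISAT2, DESeq2 1.16.1 and Subread, with no order. Annotation version, strandedness and handling of multi-mapped reads were not stated in these sources, so reads of overlapping or antisense genes cannot be told apart. Columns were assigned by name, CO as control and XA as DMXAA, with the number read as the replicate. The labels name 2 library kits without saying which was used where. GENCODE M21, on the assembly of mm10, gave symbols for 99.93% of IDs, positions, total exon lengths and GC content.

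Groups were compared with the quasi-likelihood F test of edgeR 4.0.16 (R 4.3.3), two-sided, with the default expression filter, TMM factors and a model of group alone, adjusted by Benjamini-Hochberg over 16226 genes. SEs are the log2 fold change divided by the root of F. DESeq2 1.42.0 was an alternative. The procedure was tested on simulated data. TPM values were computed from the counts and total exon lengths. Members and lists were chosen with earlier results of these data known. All members could be named; values per library were printed for Foxo3, Wdfy3, the 8 smallest unadjusted p, members whose groups do not overlap, the smallest p in each role, and up to 2 genes of each further list, while the values of Gabarap, Gabarapl1, Sqstm1, Tfeb, Rb1cc1, Atg3, Foxo4, Irs2 and Igfbp1 beyond that rule were printed after they were seen. The alternatives were RLE scaling, other filters, robust dispersion, removal of the 20 most abundant and mitochondrial genes, a length and GC correction, a replicate block and leaving out each library.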

Additional observations from a re-analysis of the deposited data

How the results depend on the processing

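The count of genes called by edgeR, 0, was 34 without an expression filter, and DESeq2 called 54 genes, 3 of them members; edgeR called 0 members in all 12 of its alternatives. Leaving out each vehicle library gave 0 to 2 called genes with edgeR and 37 to 181 with DESeq2. The median over the members stayed between -0.02 and 0.04 over 13 alternatives, and 16 to 22 members had estimates above 0, against 19. Of the 37 members, 20 kept their sign in all 13 alternatives, 11 higher and 9 lower, and 17 changed it at least once. The labels share replicate numbers 1 and 2 between groups, but deviations of same-numbered libraries correlated at 0.04 and 0.02, so no pairing was taken; with the replicate block, which leaves vehicle library 3 without weight in the comparison, 4 genes and 0 members were called, and Foxo3 was at 0.57. Where a left-out library leaves 1 DMXAA sample, that sample is assumed to vary like the vehicle samples. With the mean isoform length the median member level was 40.8 TPM in place of 30.8. With only the 250 bases before the start, the interferon element core was in 0 members, since the match in Nbr1 crosses the start. With 3 counts as the limit behind a 0, depth allows 0.148 to 0.170 CPM per library, for counting error only. The cause of these changes was otherwise not tested.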

Other observations

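Markers of kidney and other cell types were summed per library to show what else the samples held. Podocyte markers summed to 386 to 447 CPM with vehicle against 416 and 483 CPM with DMXAA, and markers of the loop of Henle and distal tubule to 5269 to 8514 CPM and to 7150 and 7702 CPM. Collecting duct markers, 7 of 8 tested and all 7 with estimates below 0, were at 1160, 603 and 680 CPM with vehicle against 582 and 654 CPM with DMXAA. Endothelial markers were at 362 to 619 CPM with vehicle against 543 and 616 CPM with DMXAA, and fibroblast and mural markers at 160 to 396 CPM and at 272 and 285 CPM. Macrophage and monocyte markers summed to 1333 and 812 CPM in the DMXAA libraries, within the vehicle range of 680 to 1561 CPM. Most of each sum was Cd74 alone, at 503, 1326 and 1313 CPM with vehicle against 1124 and 625 CPM with DMXAA. The sum therefore mainly follows that gene. T and NK cell markers summed to 9.30 to 15.1 CPM with vehicle against 14.98 and 11.8 CPM with DMXAA, and B cell markers to 11.2 to 21.7 CPM and to 16.5 and 6.47 CPM. Urothelial markers reached 114.5 CPM in vehicle library 1 and stayed between 2.22 and 12.7 CPM elsewhere.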
